A study of Drosophila melanogaster with 72 samples.

Results

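Expression of 8 genes of c-Jun N-terminal kinase (JNK) signalling and programmed cell death was followed in heads of Drosophila melanogaster that expressed huntingtin with an expanded polyglutamine tract (mHTT), the cause of Huntington's disease. The genes were chosen by name, with earlier results of these data known, so counts among them set beside all genes are descriptive. They were egr, which encodes the tumour necrosis factor ligand Eiger, the JNK-linked genes Ets21C, puc (puckered) and Gadd45, the death inducers rpr (reaper), skl (sickle) and W (the gene also called hid), and the death inhibitor th (the gene also called Diap1). All 8 of 8 were found among the 13557 genes of the deposited table and passed the filter on low values in each of 4 models.

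The study asked how expression changes over the course of disease when mHTT is made in glia or in neurons. The study used 4 combinations of driver and construct (the models), each with 3 libraries per arm and age, which gave 72 libraries in 24 groups. Glial N-terminal flies (repo-GAL4/+; UAS-HTTNT231Q128/+) were sampled at 5, 7 and 8 days, glial full-length flies (repo-GAL4/+; UAS-HTTFLQ200/+) at 18, 20 and 22 days, neuronal N-terminal flies (elav-GAL4/+; UAS-HTTNT231Q128/+) at 7, 9 and 11 days, and neuronal full-length flies (elav-GAL4/+; UAS-HTTFLQ200/+) at 18, 20 and 22 days. The repo-GAL4 driver is active in glia and elav-GAL4 in neurons, so the RNA of a whole head comes from cells that make mHTT and from cells that do not. Controls were repo-GAL4/+ or elav-GAL4/+ flies of the same ages, so all flies carried a driver and the controls lacked a huntingtin insert. The temperature was 29 °C for the neuronal full-length model, controls included, and 28 °C for the rest. Each library was made from 50 pooled heads. Nothing in the labels says that replicates came from separate cultures, so p-values measure the spread between these libraries, which may be technical.

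Eiger binds the receptors Grindelwald and Wengen and starts a kinase cascade that ends in Basket, the fly JNK. Basket activates the AP-1 transcription factors Jra (Jun) and Kay (Fos), and one of their best known targets is puc, whose product is a phosphatase that switches Basket off again. The products of rpr, W, skl and grim bind the th product and release the caspases Dronc and Drice from inhibition. In the nervous system the JNK pathway is known for responses to axon injury and for the reaction of glia to damaged neurons.

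Values were deposited on a scale on which the upper quartile of every library is 1000, and these values are given as levels below. They are not per length of transcript, so levels are compared between libraries and not between genes. Changes are mHTT minus control on the log2(value + 1) scale from limma, averaged over the 3 ages of a model unless an age is named, and a gene was called at an adjusted p (Benjamini-Hochberg over all genes tested) under 0.05. Estimated depth was 34.9 to 46.7 M reads per library. The second neuronal N-terminal control at day 11 stood apart from all other libraries. It listed 3223 genes at 0, against 1073 to 1782 in the other 71 libraries, and its label prefix occurred once. In each model the library with the largest deviation from its group mean is called the farthest. It was the first mHTT library at day 7 in the glial N-terminal model, the first control at day 22 in the glial full-length model, the library just named in the neuronal N-terminal model, and the first mHTT library at day 22 in the neuronal full-length model. Fits without these libraries are given where they alter a statement. At single ages, with 3 libraries per arm, the arms did not overlap for 21.8% to 44.9% of all genes. In heads, fewer cells of a type and less RNA per cell cannot be told apart, which applies to every change below.

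**Figure D1:**
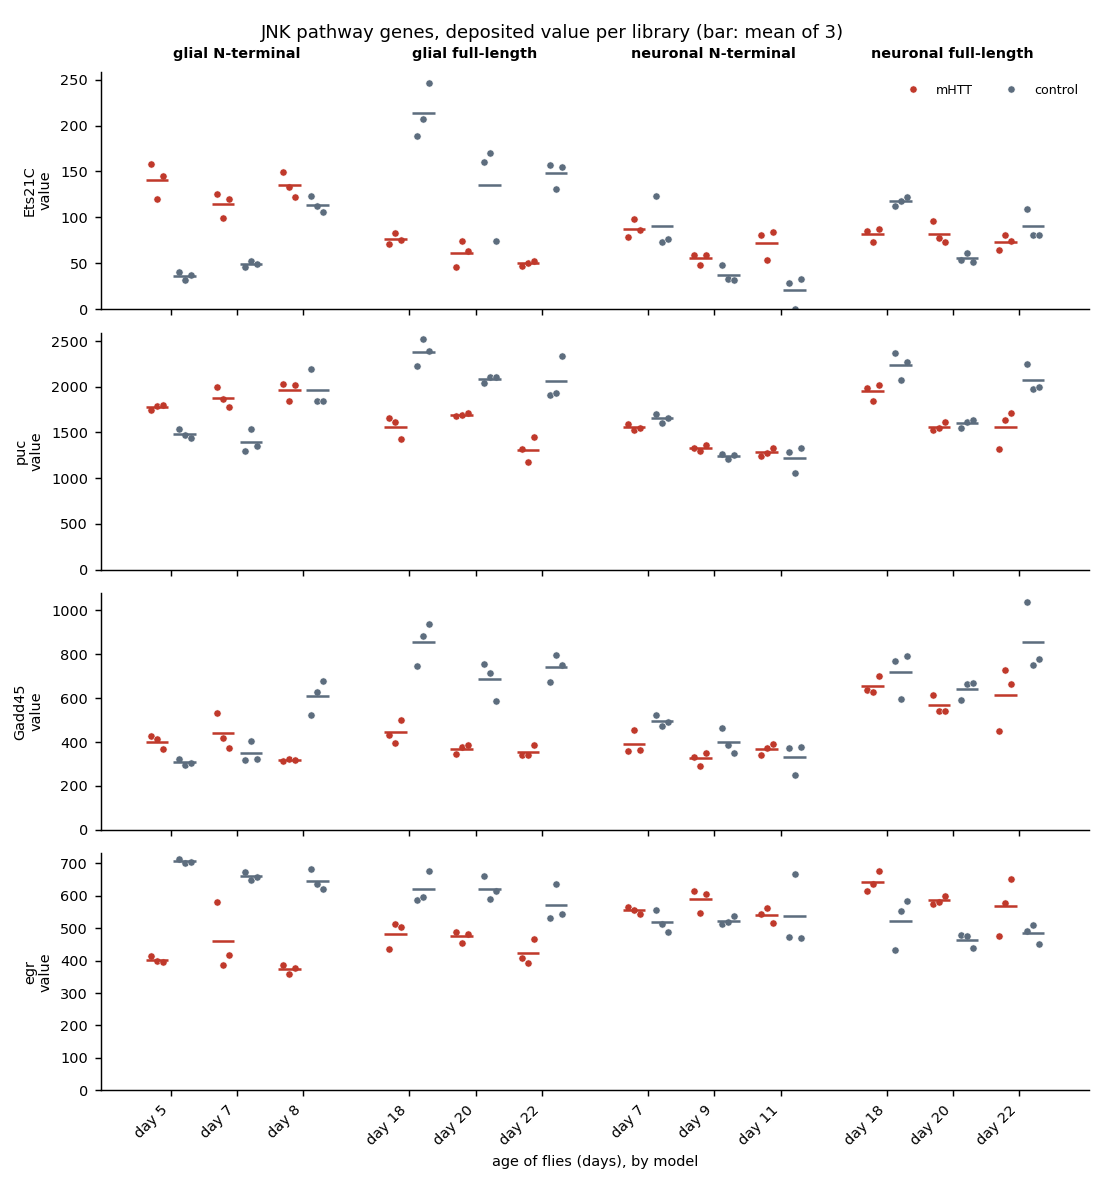
Deposited values (75th percentile of each library 1000) of Ets21C, puc, Gadd45 and egr in each of 72 libraries, by model and age in days, with mHTT left of control and bars at the mean of 3 libraries. Ets21C lies above the control at days 5 and 7 in glial N-terminal heads and below it in glial full-length heads, and egr lies below the control in both glial models.

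In glial N-terminal heads 4 of the 8 genes rose (Ets21C, skl, rpr and puc), 1 fell (egr), and Gadd45, W and th were not called. Among all 10358 genes tested in this model, 20.4% were called higher and 12.1% lower, 32.5% in all. The median change of the 8 genes was 0.14, against 0.06 over all genes. At single ages, 2 rose and 1 fell at day 5 (13.5% of all genes were called), 4 rose and 1 fell at day 7 (17.8%), and 1 rose and 2 fell at day 8 (10.5%). With the 6 libraries of day 7 alone the calls of egr, puc and rpr at that age were lost (adjusted p = 0.147, 0.0877 and 0.11).

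The ligand gene egr was lower in every mHTT library. Its values were 415, 400.0 and 395 in mHTT heads against 713, 700.2 and 704.4 in controls at day 5, and 579, 388 and 419 against 672, 648.5 and 659 at day 7. At day 8 they were 386.5, 359.9 and 378 in mHTT heads against 681, 635 and 622 in controls. The arms did not overlap at any age or over all ages, which held for 7.38% of all genes over the 3 ages. The change was -0.71 (SE 0.06, limma adjusted p = 3.19e-07), and the call was kept under all 30 alternative settings tried.

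Ets21C, which encodes a transcription factor of the ETS family that is induced by JNK signalling in several fly tissues, showed the largest change of the 8 genes in this model. At day 5 its values were 158, 120 and 145 in mHTT heads against 40.9, 31.8 and 36.7 in controls, and at day 7 they were 125, 99.8 and 119.7 against 45.5, 52.1 and 49.7. At day 8 they were 149, 133 and 122 in mHTT heads against 124, 112 and 105 in controls. The arms were far apart at the first 2 ages and overlapped at day 8, when the 3 controls lay above every younger control while the mHTT libraries stayed in their earlier range. The change was 1.92 at day 5, 1.21 at day 7 and 0.24 at day 8 (adjusted p = 9.77e-08, 1.99e-05 and 0.367), and 1.12 over the ages (SE 0.08, adjusted p = 2.96e-08). The moderated F test for unequal changes over the ages gave an adjusted p of 0.00352, and 0.27% of all genes passed it. In the annotation Ets21C overlaps nAChRbeta3 (nAcRbeta-21C in the table), a subunit gene of an acetylcholine receptor on the opposite strand. No source used here says whether reads were assigned by strand, so reads from any stretch that both cover cannot be told apart. Whether their exons overlap was not examined. In this model nAChRbeta3 went the other way (-0.59, adjusted p = 0.0119).

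The phosphatase gene puc rose by less. Its values were 1750, 1790 and 1805 in mHTT heads against 1534, 1469 and 1443 in controls at day 5, and 2003, 1864 and 1775 against 1297, 1542 and 1352 at day 7. At day 8 they were 2032, 1842 and 2025 in mHTT heads against 2197, 1840 and 1847 in controls. As with Ets21C, the arms were apart at days 5 and 7 and overlapped at day 8, with controls higher at day 8 than before. The change was 0.43 at day 7 (adjusted p = 0.00188) and 0.23 over the ages (SE 0.05, adjusted p = 0.00131). At day 5 it was 0.27 (adjusted p = 0.0431), a call that was lost in 9 of 18 fits that each left out 1 library (adjusted p up to 0.138).

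Gadd45 belongs to a family of stress-induced genes whose mammalian members bind a kinase upstream of JNK. Its values were 425, 412 and 368 in mHTT heads against 324, 297 and 306 in controls at day 5, and 531, 419 and 375 against 318, 403 and 324 at day 7. At day 8 they were 316, 323 and 317 in mHTT heads against 522, 629 and 678 in controls. The arms did not overlap at day 5, in the direction of higher values in mHTT heads, nor at day 8, in the opposite direction. At those ages the arms were apart, in either direction, for 44.3% and 29.8% of all genes. The change was 0.38 at day 5, 0.33 at day 7 and -0.93 at day 8 (adjusted p = 0.0673, 0.0895 and 1.43e-04), and the F test for unequal changes gave an adjusted p of 0.00423. Averaged over the ages it was -0.07 (adjusted p = 0.492), which hides these differences.

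**Figure D2:**
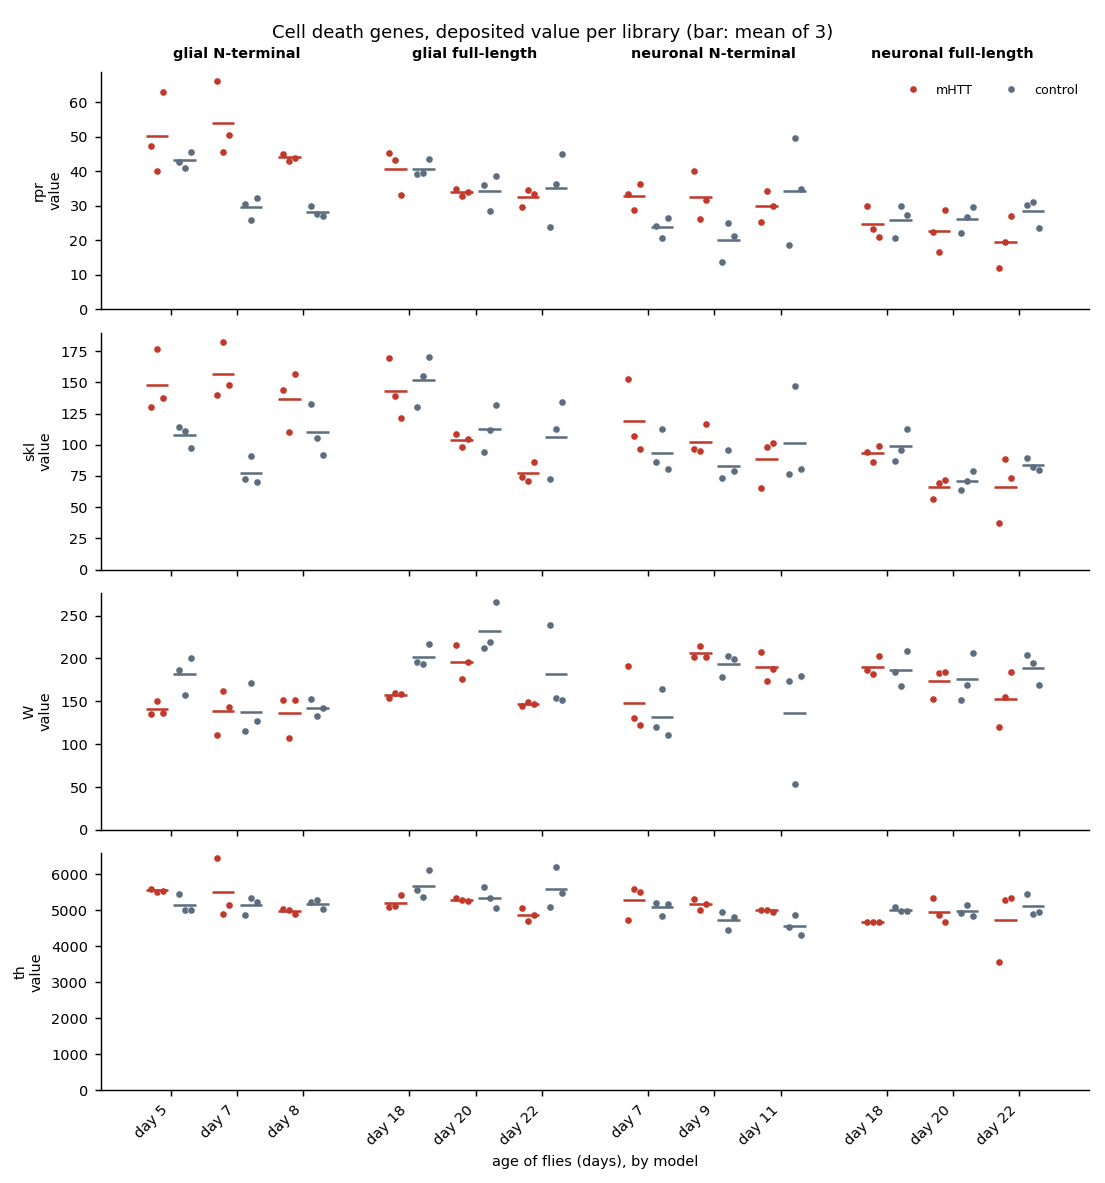
Deposited values (75th percentile of each library 1000) of rpr, skl, W and th in each of 72 libraries, by model and age in days, with mHTT left of control and bars at the mean of 3 libraries. In glial N-terminal heads rpr and skl lie above the control at day 7, whereas th lies between 3552 and 6433 in all libraries.

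Both rpr and skl, whose products antagonise the th product, rose in glial N-terminal heads. At day 7 rpr had values of 66.0, 45.7 and 50.6 in mHTT heads against 30.6, 25.8 and 32.2 in controls, and at day 8 of 45.1, 43.0 and 43.9 against 29.8, 27.5 and 27.0. At day 5 the arms overlapped, with 47.4, 40.0 and 63.0 in mHTT heads against 42.7, 40.9 and 45.6 in controls. The change of rpr was 0.55 over the ages (SE 0.10, adjusted p = 7.01e-04) and 0.84 at day 7 (adjusted p = 0.00414). At day 8 it was 0.63 (adjusted p = 0.0344), and that call was lost in 6 of 18 fits that each left out 1 library. Reads behind rpr were few, with a median of 67.5 estimated reads per library, which gives a counting error of 12.2%.

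For skl the values were 131, 177 and 137 in mHTT heads against 114, 111 and 97.5 in controls at day 5, and 139.98, 183 and 148 against 72.9, 90.7 and 69.8 at day 7. At day 8 they were 144, 110.1 and 157 in mHTT heads against 133, 106 and 91.8 in controls. Every mHTT library was above every control at days 5 and 7, and the arms overlapped at day 8. The arms were apart, in either direction, for 44.3% and 27.8% of all genes at days 5 and 7. The change was 0.59 over the ages (SE 0.10, adjusted p = 3.53e-04) and 1.004 at day 7 (adjusted p = 9.32e-04). The calls of rpr, skl, puc and Ets21C over the ages were kept in all 18 fits that each left out 1 library.

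W, which encodes another antagonist of the th product, was not called in glial N-terminal heads. It had values of 108 to 162 in mHTT heads (median 143) and 116 to 201 in controls (median 152), with a change of -0.14 (adjusted p = 0.314). The inhibitor gene th had values of 4883 to 6433 in mHTT heads and 4864 to 5441 in controls, with a change of 0.05 (adjusted p = 0.511) that turned to -0.02 with median-ratio rescaling. In the annotation W, grim, rpr and skl lie in this order on the same strand of chromosome arm 3L with 4 other protein-coding genes among them, and no annotated gene overlaps W, rpr or skl. Non-coding genes on the opposite strand, none of them in the deposited table, overlap puc, th and egr.

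Marker genes of several cell types also differed between the arms of this model. All 5 of 5 glial marker genes (repo, moody, alrm, wrapper and Eaat1) were called lower, and their summed value was 7129 to 9224 in mHTT heads against 11730 to 14050 in controls, with none at 0. Of 5 haemocyte markers 3 were called higher (Hml, Pxn and Sr-CI), with sums of 14030 to 17620 against 9078 to 12360, and 2 of 3 photoreceptor markers were called higher. None of 4 neuronal markers was called, and 1 of 4 fat body and 1 of 4 gut markers tested were called lower. Whether these shifts carry part of the changes of the 8 genes was not tested.

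In glial full-length heads, sampled at later ages, 6 of the 8 genes fell (Gadd45, Ets21C, puc, egr, W and th) and none rose. Across the 10421 genes tested, 25.1% were called lower and 19.3% higher, 44.4% in all. The median change of the 8 genes was -0.34, against -0.04 over all genes. Without the farthest library 7 of the 8 fell, with skl added (-0.29, adjusted p = 0.0157), when 30.2% of all genes were called lower. At each of the 3 ages the same number of the 8 genes, 4, was called lower and none higher, against 20.2%, 20.4% and 31.5% of all genes called in either direction at days 18, 20 and 22. Of these calls egr at day 18 was lost in 2 of 18 fits that each left out 1 library (adjusted p up to 0.0628) and puc at day 20 in 4 of 18 (up to 0.065). Ets21C at day 20 was lost with all 72 libraries in 1 fit (adjusted p = 0.207), and egr at day 22 with the 6 libraries of that age alone (adjusted p = 0.0539).

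For egr the values were 434, 514 and 502 in mHTT heads against 588, 597 and 678 in controls at day 18, and 490, 453 and 481 against 659.9, 591 and 616 at day 20. The day 22 values were 409, 391 and 467 in mHTT heads against 531, 638 and 543 in controls. No mHTT library reached any control over the 3 ages, as in the N-terminal model. The change was -0.39 (SE 0.05, adjusted p = 1.75e-05). It was -0.30 (adjusted p = 0.0798) among the libraries with the most frequent label prefix, a subset that holds 3 of the 9 controls.

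Gadd45 fell at every age. Its values were 434, 397 and 499.6 in mHTT heads against 748, 881 and 939 in controls at day 18, and 347.5, 376 and 386 against 755, 716 and 587 at day 20. At day 22 they were 341, 340.5 and 388 in mHTT heads against 672, 798 and 749.5 in controls. The arms did not overlap over the 3 ages, and the change was -0.96 (SE 0.07, adjusted p = 6.05e-09), with -0.95, -0.88 and -1.05 at days 18, 20 and 22.

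Ets21C moved opposite to its direction in the N-terminal model. Its values were 71.4, 83.3 and 75.6 in mHTT heads against 188, 207 and 246 in controls at day 18, and 45.5, 74.3 and 63.4 against 161, 170.1 and 73.7 at day 20. The day 22 values were 47.0, 50.8 and 52.6 in mHTT heads against 157, 131 and 155 in controls. The third control at day 20 lay within the range of the mHTT libraries and all other controls lay above every mHTT library. The change was -1.35 (SE 0.14, adjusted p = 1.04e-06), with -1.46, -1.07 and -1.54 at the 3 ages. The opposite-strand gene nAChRbeta3 also fell in this model (-0.60, adjusted p = 0.00188).

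The values of puc were 1654, 1612 and 1425 in mHTT heads against 2232, 2521 and 2389 in controls at day 18, and 1678, 1690 and 1710 against 2044, 2110 and 2110 at day 20. At day 22 they were 1314, 1174 and 1451 in mHTT heads against 1913, 1935 and 2340 in controls. The highest mHTT library was below the lowest control of all ages. For 3 of the 8 genes (egr, Gadd45 and puc) the 9 mHTT libraries lay below all 9 controls, which held in either direction for 10.5% of all genes. The change of puc was -0.52 (SE 0.05, adjusted p = 3.46e-07), and calls of puc, Gadd45 and Ets21C over the ages were kept under all 30 alternative settings tried.

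Among the death genes W and th fell slightly in glial full-length heads. W had 154, 159.9 and 158 in mHTT heads against 196, 193 and 217 in controls at day 18, 216, 177 and 196 against 213, 219 and 266 at day 20, and 145, 149 and 147 against 239, 154 and 151 at day 22. The arms were apart at days 18 and 22, as held for 40.6% and 35.6% of all genes, and overlapped at day 20. The change was -0.29 (SE 0.08, adjusted p = 0.0101). It was not called with all 72 libraries in 1 fit (adjusted p = 0.0928) or among libraries with the most frequent label prefix (-0.37, adjusted p = 0.196). For th the range was 4697 to 5406 in mHTT heads and 5061 to 6195 in controls, and the change was -0.11 (SE 0.04, adjusted p = 0.0402). That call was lost in 11 of 18 fits that each left out 1 library (adjusted p up to 0.0832) and with median-ratio rescaling (-0.09, adjusted p = 0.096).

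The inducers rpr and skl were not called in glial full-length heads. For rpr the range was 29.5 to 45.3 in mHTT heads and 23.8 to 45.1 in controls, with a change of -0.03 (adjusted p = 0.862). For skl it was 71.0 to 170 in mHTT heads and 72.6 to 170.1 in controls, with a change of -0.20 (adjusted p = 0.163). Their arms overlapped at each age except that skl at day 22 overlapped through 1 control library, the first, which is the farthest of this model.

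Marker genes moved in this model as well. Of 5 glial markers 4 were called lower (sums of 8855 to 10140 in mHTT heads against 9949 to 14650 in controls) and 5 of 5 haemocyte markers were called higher (8172 to 13140 against 3590 to 6902). All 4 fat body markers tested were called higher and all 4 gut markers tested were called lower. Of the rest, 1 of 4 neuronal and 2 of 3 photoreceptor markers were called lower. Both arms contain the glial and haemocyte markers at values above 0, and their part in the changes of the 8 genes was not tested.

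The controls of the 2 glial models share genotype and temperature, so their values at different ages were set side by side. Their label prefixes differ as well, with H57777 on 6 of the 9 older controls and on 2 of the 9 younger ones. The part of the prefix in this comparison was not tested. Older repo-GAL4/+ controls (18 to 22 days) had higher values than younger ones (5 to 8 days) for Ets21C (1.41, SE 0.29, adjusted p = 1.50e-04), Gadd45 (0.91, SE 0.09, adjusted p = 1.89e-12), puc (0.45, SE 0.05, adjusted p = 1.23e-10) and W (0.41, SE 0.13, adjusted p = 0.0152). That is 4 of 8 genes called, all higher, against 24% of all 10976 genes tested (13.9% higher). Gadd45 averaged 390.1 ± 51.0 in full-length mHTT heads, against 760.4 ± 105 in their older controls and 422 ± 149 in the younger controls (SD, n = 9 each). For Ets21C the means were 62.6 ± 14.1 in full-length mHTT heads, 165 ± 48.1 in older controls and 66.4 ± 36.2 in younger controls, and for puc they were 1523 ± 191, 2177 ± 208 and 1613 ± 291 in the same order. The SD of the younger controls spans ages with different levels, since their Gadd45 means were 309, 348 and 610.0 and their Ets21C means 36.5, 49.1 and 114 at days 5, 7 and 8. When each model's farthest library was left out, egr (-0.14), th (0.12) and skl (0.40) were also called between older and younger glial controls.

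Controls of the neuronal driver showed the same 4 calls. Older elav-GAL4/+ heads had higher values than younger ones for Ets21C (1.39), Gadd45 (0.86), puc (0.52) and W (0.34), with adjusted p of 2.44e-04, 2.94e-11, 4.41e-12 and 0.0441, against 28.1% of all genes called. Age goes with temperature in this comparison and the effects cannot be told apart. Without the farthest libraries the change of W was 0.15 (adjusted p = 0.132) and that of Ets21C was 0.83 (adjusted p = 1.85e-07).

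**Figure D3:**
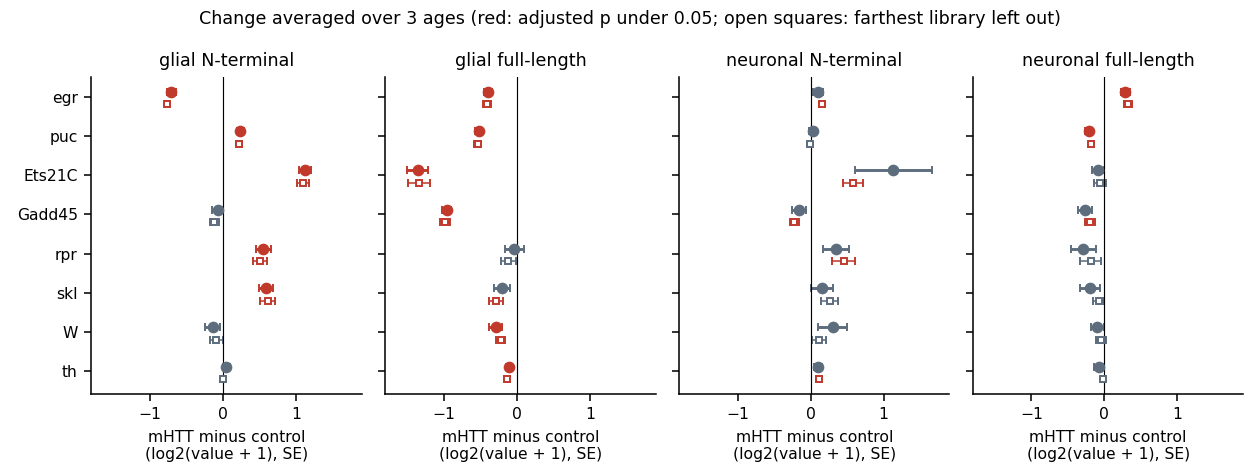
Change of each gene (mHTT minus control, log2(value + 1), averaged over 3 ages) with its standard error in the 4 models. Filled circles use all libraries, open squares leave out the library farthest from its group, and red marks an adjusted p under 0.05; the 8 genes point in different directions in the glial N-terminal model and to lower values in the glial full-length model.

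In neuronal N-terminal heads none of the 8 genes was called with all libraries, against 13.6% of all 10162 genes tested. Of all genes 6.03% were called higher and 7.53% lower. At days 7, 9 and 11 no gene of the 8 was called either, against 1.98%, 4.32% and 7.77% of all genes. None of the 8 had an unadjusted p under 0.05 over the ages, and the lowest was 0.0509 for Ets21C. Without the second control at day 11, the library that stood apart, 4 of the 8 rose (Ets21C 0.58, rpr 0.45, egr 0.15 and th 0.12, with adjusted p of 0.00278, 0.0312, 0.00367 and 0.0245) and Gadd45 fell (-0.22, adjusted p = 0.013). Of all genes 36.8% were called in that fit. The median change of the 8 genes was 0.13 with all libraries, against 0.01 over all genes.

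Ets21C was listed at 0 in the library left out, while the same library held 667 for egr, 49.5 for rpr and 54.0 for W, each outside the range of the other 2 controls of that age. The values of Ets21C at day 7 were 78.4, 97.9 and 86.4 in mHTT heads against 123, 73.6 and 76.5 in controls, and at day 9 they were 58.9, 47.8 and 59.1 against 47.7, 32.8 and 31.7. At day 11 they were 80.8, 53.2 and 83.6 in mHTT heads against 28.3 and 32.9 in the other 2 controls. The arms overlapped at day 7 and were apart at days 9 and 11, as held for 43.5% and 29.5% of all genes. For Gadd45 the values were 359, 455 and 362 in mHTT heads against 523, 472 and 491 in controls at day 7, and 333, 293 and 351 against 462, 388 and 352 at day 9. At day 11 they were 342, 374 and 389 against 374, 249.7 and 378. The mHTT libraries of Gadd45 lay below the controls at the first 2 ages, and the arms overlapped at day 11.

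The egr values in neuronal N-terminal heads were 516 to 616 in mHTT heads and 471 to 667 in controls, and those of puc were 1242 to 1598 and 1061 to 1701. The change of puc was 0.03 (adjusted p = 0.692) with all libraries and -0.01 without the library that stood apart. For rpr the values were 33.3, 28.9 and 36.4 in mHTT heads against 24.1, 20.8 and 26.5 in controls at day 7, and 40.1, 26.0 and 31.7 against 13.7, 24.8 and 21.3 at day 9. The rpr arms were apart at these ages, as held for 28.5% and 43.5% of all genes. They overlapped at day 11, where mHTT heads had 25.2, 34.2 and 30.03 and controls 18.5, 49.5 and 34.9. The changes of skl (0.16, adjusted p = 0.479) and W (0.30, adjusted p = 0.351) were not called. Of the markers, 1 of 5 glial and 2 of 5 haemocyte genes were called higher, all 4 fat body genes tested and 1 of 3 photoreceptor genes were called lower, and their part was not tested. With quantile normalisation Yp1, Yp2 and Yp3 of the fat body genes and the photoreceptor gene ninaE were not called.

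In neuronal full-length heads egr rose and puc fell, and the other 6 genes were not called, against 18.9% of all 10538 genes tested. Of all genes 9.4% were called higher and 9.54% lower. At single ages 1 of the 8 was called lower at day 18 (Ets21C; 9.2% of all genes were called), 1 higher at day 20 (Ets21C; 4.14%) and 1 lower at day 22 (puc; 7.65%). The median change of the 8 genes was -0.15, against 0.00 over all genes. The values of egr were 614, 636 and 677 in mHTT heads against 432, 552 and 584 in controls at day 18, and 576, 581 and 601 against 479, 474 and 439.7 at day 20. The day 22 values were 475, 577 and 651 in mHTT heads against 491, 511 and 450.3 in controls. The arms overlapped at day 22 through the first mHTT library, the farthest of this model. The change was 0.29 (SE 0.07, adjusted p = 0.00691), and 0.33 without that library.

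For puc the values were 1992, 1844 and 2018 in mHTT heads against 2368, 2071 and 2266 in controls at day 18, and 1524, 1551 and 1610 against 1545, 1619 and 1634 at day 20. At day 22 they were 1322, 1632 and 1714 in mHTT heads against 2247, 1978 and 1995 in controls. The arms were apart at the first and last age, as held for 38.9% and 21.8% of all genes, and overlapped at day 20. The control mean was 1599 at day 20, against 2235 and 2074 at days 18 and 22. The mHTT means were 1951, 1562 and 1556 at days 18, 20 and 22. The day 22 call of puc was lost with the 6 libraries of that age alone (adjusted p = 0.358) and without the first control of that age (-0.36, adjusted p = 0.0518). The change was -0.22 (SE 0.05, adjusted p = 0.00716), and calls of egr and puc over the ages were kept under all 30 alternative settings tried.

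Ets21C changed sign with age in neuronal full-length heads. Its values were 84.8, 73.2 and 86.8 in mHTT heads against 113, 118 and 122 in controls at day 18, and 96.1, 77.4 and 73.4 against 53.5, 61.4 and 51.4 at day 20. The day 22 values were 64.9, 81.3 and 73.9 in mHTT heads against 109, 81.1 and 81.2 in controls. The controls differed by age, with the lowest values at day 20, while the mHTT libraries stayed between 64.9 and 96.1. The change was -0.52, 0.56 and -0.29 (adjusted p = 0.0386, 0.0488 and 0.257), and the F test for unequal changes gave an adjusted p of 0.0465 (0.731% of all genes passed). Left-out libraries ended the single-age calls in 8 of 18 fits at day 18 and in 16 of 18 at day 20. Gadd45 was lower without being called (-0.27, adjusted p = 0.0651), and was called without the farthest library (-0.20, adjusted p = 0.0476). Changes of rpr (-0.29), skl (-0.20), W (-0.10) and th (-0.08) had adjusted p of 0.27 to 0.491. In the farthest library th stood at 3552, skl at 37.4 and rpr at 12.1, each the lowest of all 72 libraries. Its neuronal marker sum was 17880, against a median of 39390 in its group. The lowest sums of that group were also low for glia (5313, median 11070) and photoreceptors (385700, median 790500). The same held for fat body (537100, median 1054000) and haemocytes (4404, median 8159). Of the markers 2 of 5 haemocyte genes were called higher, 2 fat body genes lower and no glial or neuronal gene, and their part was not tested.

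Differences between models were tested in 1 fit of all 72 libraries with 10976 genes. The full-length model was set against the N-terminal model in glia, which also differ in age, and 6 of the 8 genes differed (28.1% of all genes were called): Ets21C by -2.48, Gadd45 by -0.89, skl by -0.79, puc by -0.75, rpr by -0.58 and egr by 0.31. Their adjusted p were 3.25e-06, 4.15e-08, 5.84e-04, 3.90e-13, 0.0223 and 0.00507. The change of egr was thus smaller in size in the full-length model, and the other 5 were lower there. Construct and age cannot be told apart in this comparison.

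Drivers were compared within each construct. With full-length mHTT the change in neuronal heads exceeded that in glial heads for Ets21C (1.27), Gadd45 (0.69), egr (0.68) and puc (0.30), with adjusted p of 0.0202, 1.03e-05, 2.46e-08 and 5.24e-04, when 21% of all genes were called. Ages were the same, and temperature differed by 1 °C together with the driver. With the N-terminal fragment egr (0.81, adjusted p = 2.03e-10) and puc (-0.21, adjusted p = 0.0177) differed between neuronal and glial heads, when 29.6% of all genes were called. Under median-ratio rescaling puc was not called (-0.12, adjusted p = 0.162). The ages overlap only at day 7, and there egr differed by 0.64, puc by -0.52 and Gadd45 by -0.68 (adjusted p = 0.00349, 0.00175 and 0.0297; 8.75% of all genes called). At that age median-ratio rescaling ended the call of Gadd45 (-0.58, adjusted p = 0.0748). Ets21C (-1.23, adjusted p = 0.4) and skl (-0.67, adjusted p = 0.24) were not called at day 7 with all libraries. Without the farthest libraries both were called there, at -1.16 (adjusted p = 0.0033) and -0.75 (adjusted p = 0.029). Between the 2 neuronal models, Ets21C (-1.22), rpr (-0.64) and puc (-0.24) differed with full-length minus N-terminal (15.6% called), and Ets21C differed by -0.64 (adjusted p = 0.00346) without the farthest libraries. With the 36 libraries of these models alone the calls of Ets21C (adjusted p = 0.187) and rpr (adjusted p = 0.109) were lost.

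The order of the 24 group means was examined for each gene. Ets21C had the widest range, with 214 ± 29.5 in glial controls at day 18 at the top and 20.4 ± 17.8 in neuronal controls at day 11 at the bottom (SD, n = 3 each), a group that includes the library listed at 0. Among the 23 pairs of neighbours in that order, 2 did not overlap. Gadd45 ranged from 309 ± 14.0 in glial controls at day 5 to 856 ± 159.7 in neuronal controls at day 22, and puc from 1225 ± 143 in neuronal controls at day 11 to 2380 ± 145 in glial controls at day 18, with 1 of 23 neighbouring pairs apart for each. For egr the lowest mean was in glial N-terminal mHTT heads at day 8 (375 ± 13.5, SD, n = 3) and the highest in glial controls at day 5, and 2 neighbouring pairs were apart. For rpr, skl, W and th no neighbouring pair was apart, and the top mean exceeded the bottom by 2.77, 2.38, 1.76 and 1.24 times.

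Changes of the genes were then compared over the 12 differences (4 models by 3 ages), where differences of 1 model share a fit but no library. Pearson's r was 0.87 between rpr and skl, 0.86 between puc and th, 0.83 between Ets21C and Gadd45, 0.82 for Ets21C with th, Ets21C with puc and skl with puc, and 0.81 between puc and Gadd45. All other pairs had lower r. The largest Ets21C difference, 2.85 in neuronal N-terminal heads at day 11, includes the control listed at 0. Values of r without that library were not obtained, which applies to all r given here. The egr changes had r between -0.41 and 0.41 with the other 7 genes. Among all genes with a mean of at least 100, the gene with changes most like those of puc was Jra (r = 0.96), the fly Jun, followed by NKAIN and CG9646. For Ets21C the most alike were CG6006, CG3194 and CG3793 (r = 0.96 each), and for Gadd45 spirit (0.91), Socs36E (0.90), an inhibitor of JAK/STAT signalling, and CG14883 (0.89). For egr they were Cpr72Ec, Obp44a and CR43259 (0.98 each), for rpr CG6024, Pka-R1 and Tsp42Ek (0.94 to 0.92) and for skl CG4893, RhoGDI and CG34155 (0.95 each). For W they were ird1, Aac11 and CG6116 (0.94 each) and for th Rab6, edl and CG10508 (0.90 to 0.88). Genes with r over 0.9 numbered 18 for puc, 28 for Ets21C, 2 for Gadd45 and 48 for egr. They numbered 7 for rpr, 24 for skl, 49 for W and 1 for th, of 8453 or 8454 compared.

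**Figure D4:**
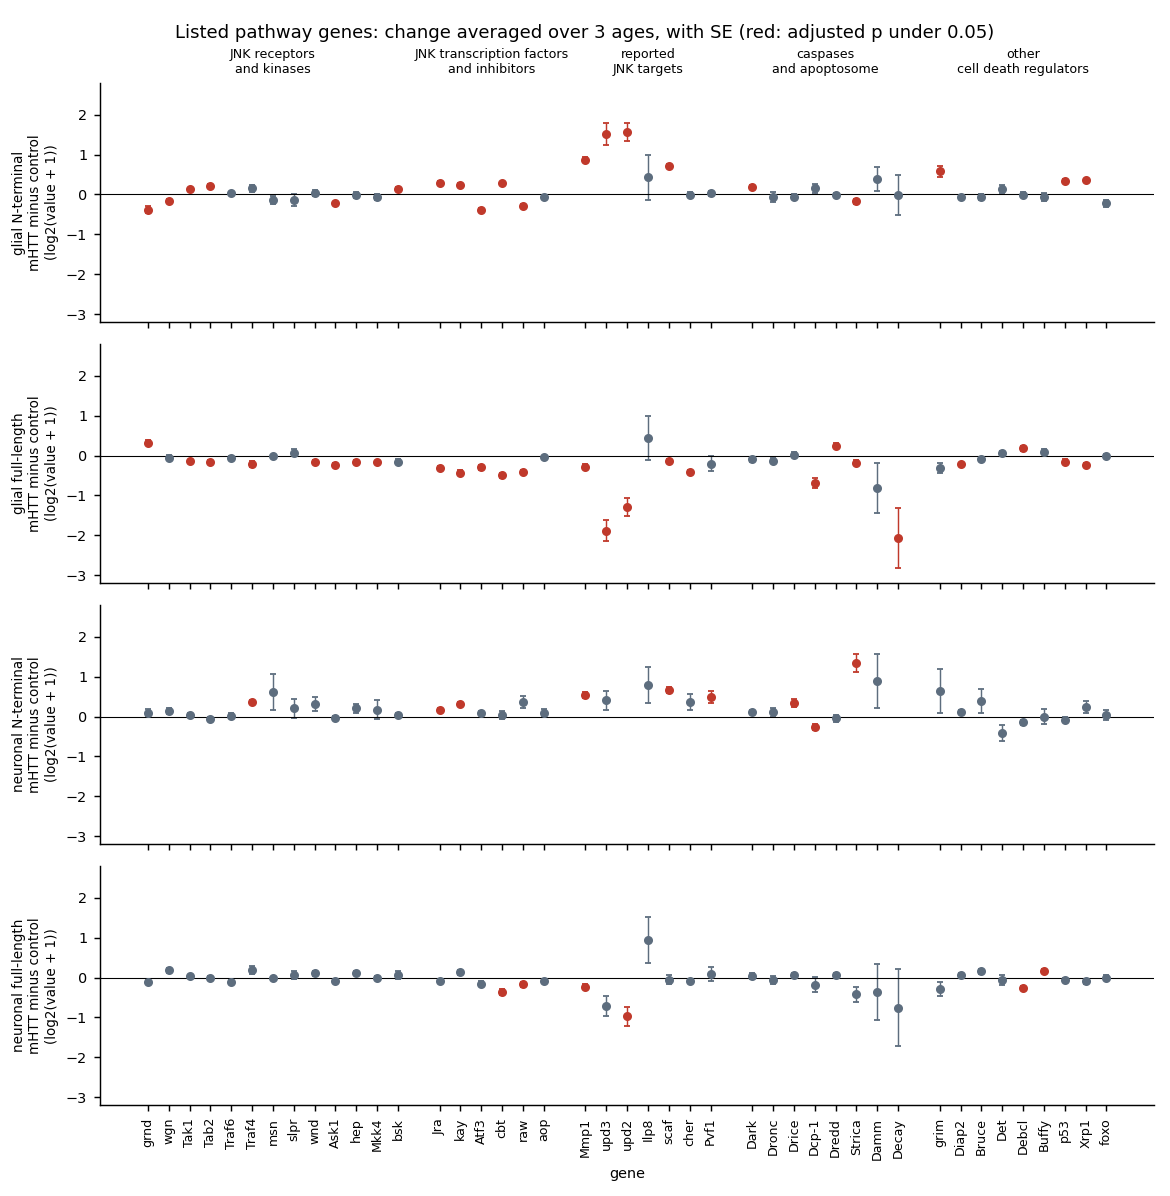
Change of 43 other listed pathway genes (mHTT minus control, log2(value + 1), averaged over 3 ages) with its standard error in the 4 models, grouped by role. Red marks an adjusted p under 0.05; upd2 and upd3 lie above 0 in glial N-terminal heads and below 0 in both full-length models.

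The 43 other genes listed for the 2 pathways, also chosen with earlier results of these data known, were read in the same fits. In glial N-terminal heads 14 of 43 were called higher and 6 lower, in glial full-length heads 3 higher and 23 lower, in neuronal N-terminal heads 8 of 41 tested higher and 1 lower, and in neuronal full-length heads 1 higher and 5 lower. Of all genes, 20.4% were called higher and 12.1% lower in glial N-terminal heads, and 19.3% and 25.1% in glial full-length heads. In neuronal N-terminal heads these shares were 6.03% and 7.53%, and in neuronal full-length heads 9.4% and 9.54%. Without the farthest library the counts were 15 and 7, 3 and 25, 16 and 3, and 10 and 10 in the same order of models, when 40.2%, 51.6%, 36.8% and 35.7% of all genes were called. In the neuronal models these counts moved by over 1.5 times with 1 library.

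Among receptors and kinases of the pathway (13 genes), 3 were called higher and 3 lower in glial N-terminal heads and 1 higher and 7 lower in glial full-length heads. Shares called over all genes were 20.4% higher and 12.1% lower in the N-terminal and 19.3% higher and 25.1% lower in the full-length glial model, and the lists below are read against the same shares. The receptor gene grnd changed by -0.38 in the N-terminal and by 0.32 in the full-length glial model (adjusted p = 0.0017 and 6.8e-04), opposite to the direction of puc in each. The kinase genes Ask1 (-0.21 and -0.23) fell in both glial models, and Tak1 (0.14 and -0.13) and Tab2, which encodes a partner of Tak1 (0.22 and -0.16), were called in opposite directions. With median-ratio rescaling Tak1 (0.07, adjusted p = 0.204) lost its call in the N-terminal model and Tab2 (-0.13, adjusted p = 0.0544) in the full-length model, and the higher calls of this list in the N-terminal model fell to 1 of 13. Traf4, an adaptor gene, rose by 0.36 in neuronal N-terminal heads (adjusted p = 4.8e-04) and fell by 0.22 in glial full-length heads, a call lost with quantile normalisation (adjusted p = 0.098). No gene of this list was called in neuronal full-length heads with all libraries, and 5 were called higher without the farthest. Of all genes 9.4% were called higher with all libraries and 18.3% without the farthest.

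The list of 6 transcription factors and inhibitors had 3 called higher and 2 lower in glial N-terminal heads and 5 lower in glial full-length heads. In glial N-terminal heads Jra changed by 0.29, cbt by 0.28 and kay by 0.25, and in glial full-length heads by -0.31, -0.50 and -0.43, all called. Jra (0.17) and kay (0.32) also rose in neuronal N-terminal heads. The repressor gene Atf3 (-0.38 and -0.30) and raw (-0.29 and -0.41), a gene that limits JNK signalling in the embryo, fell in both glial models. In neuronal full-length heads cbt (-0.36, adjusted p = 0.0046) and raw (-0.17, adjusted p = 0.042) fell.

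Of 7 genes reported as JNK targets, 4 were called higher in glial N-terminal heads and none lower, with a median of 0.72, where 20.4% of all genes were called higher and 12.1% lower and the median of all genes was 0.06. These were upd2 (1.58) and upd3 (1.52), which encode cytokines of the JAK/STAT pathway, the matrix metalloproteinase gene Mmp1 (0.87) and scaf (0.72). Mmp1 averaged 1549 ± 161 in mHTT heads against 850.4 ± 141 in controls, and upd3 27.5 ± 10.2 against 10.5 ± 8.11 (SD, n = 9 each). In glial full-length heads 5 were called lower, upd3 (-1.89), upd2 (-1.29), cher (-0.41), Mmp1 (-0.28) and scaf (-0.14), with a median of -0.28. There upd3 averaged 10.2 ± 4.83 in mHTT heads against 38.1 ± 11.7 in controls, so values behind the upd genes are low. Neuronal N-terminal heads had 3 of 6 tested called higher (scaf 0.66, Mmp1 0.54 and Pvf1 0.50), where 6.03% of all genes were. Neuronal full-length heads had 2 of 7 called lower (upd2 -0.97 and Mmp1 -0.23), where 9.54% of all genes were.

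Of 8 caspase and apoptosome genes, 1 was called higher and 1 lower in glial N-terminal heads and 1 higher and 3 lower in glial full-length heads, where 20.4%, 12.1%, 19.3% and 25.1% of all genes were called in the same order. In glial N-terminal heads Dark, the apoptosome adaptor gene, was higher (0.18, adjusted p = 0.0035) and the caspase gene Strica lower (-0.17). Under median-ratio rescaling Dark was not called (0.12, adjusted p = 0.063). In glial full-length heads the effector caspase gene Dcp-1 (-0.69, adjusted p = 2.6e-04), Strica (-0.18) and Decay (-2.07, adjusted p = 0.037) were lower and Dredd, a caspase gene of immune signalling, was higher (0.25). One control held most of the Decay value, at 683 against a mean of 82.8 over the 9 controls, and the change was -1.30 without the farthest library and not called with quantile normalisation (adjusted p = 0.0733). In neuronal N-terminal heads Strica (1.35, adjusted p = 0.0012) and the effector caspase gene Drice (0.34) were higher and Dcp-1 lower (-0.26), and Drice was not called with median-ratio rescaling (adjusted p = 0.0504). Strica averaged 113 ± 17.4 in mHTT heads against 48.5 ± 20.2 in controls there.

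Other regulators of cell death were called higher in glial N-terminal heads for grim (0.58, adjusted p = 0.0034), the fourth antagonist of the th product on this arm, for Xrp1 (0.36), a stress-responsive transcription factor gene, and for p53 (0.34). In glial full-length heads Xrp1 (-0.25), Diap2 (-0.22), which encodes another inhibitor of apoptosis, and p53 (-0.16, adjusted p = 0.045) were lower and Debcl, of the Bcl-2 family, was higher (0.18). There grim changed by -0.31 (adjusted p = 0.069), and p53 was not called without the farthest library (-0.13, adjusted p = 0.0755) or with either rescaling (adjusted p = 0.0796 and 0.066). In the N-terminal model grim was not called with quantile normalisation (0.47, adjusted p = 0.0578). No gene of this list was called in neuronal N-terminal heads with all libraries, and in neuronal full-length heads Debcl fell by 0.26 and Buffy, the other Bcl-2 family gene, rose by 0.16, which was not called with quantile normalisation (adjusted p = 0.0538).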

How the data were processed

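RNA of whole heads was sequenced in 72 libraries. The deposited values are signal on a count-like scale, per the file headers and values: the authors' estimated gene counts, scaled so that the upper quartile of each library is 1000. The submitters' processing notes name CASAVA 1.8.2, Bowtie 0.12.0, RSEM 1.1.19, DESeq2 and the genome build dm3, and the use of strand is not given in the sources used here. Depth was estimated from low values, of which 92.0 to 95.3% were whole multiples of 1 read's worth (tolerance 0.02). Such values carry no exact counts, so limma 3.58.1 in R 4.3.3 was run on log2(value + 1) of the deposited signal.

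Genes with at least 10 in at least 3 libraries were kept. Each model was fitted as 6 group means over its 18 libraries, with a trend in the moderated variance, and p-values were adjusted over all genes. Differences between models came from 1 fit of 72 libraries. The script was tested on simulated data. Ages 18, 20 and 22 of neuronal full-length mHTT flies follow the age field, although their titles give other days. Named genes are the 8 members, the listed pathway and marker genes, and for each member the 3 genes with the highest Pearson's r over 12 differences. The members and lists were chosen with earlier results of these data known. Of 84 listed genes 83 were matched, 12 under another symbol. Alternatives were other pseudocounts, filters and scalings, a replicate block, label prefixes, array weights and left-out libraries. For the pathway lists, the fits with other scalings or without the farthest library were added after seeing the data.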

Additional observations from a re-analysis of the deposited data

Results flagged for a closer look

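The change of several genes differed between models in the fit of all 72 libraries (limma adjusted p under 0.05). Between full-length and N-terminal mHTT in glia the differences were -2.48 for Ets21C, -0.89 for Gadd45, -0.79 for skl, -0.75 for puc, -0.58 for rpr and 0.31 for egr. Between neuronal and glial heads they were 1.27 for Ets21C, 0.69 for Gadd45, 0.68 for egr and 0.30 for puc with full-length mHTT, and 0.81 for egr and -0.21 for puc with the N-terminal fragment, where puc was not called under median-ratio rescaling (-0.12, adjusted p = 0.162). At day 7, the age that both N-terminal models share, they were 0.64 for egr, -0.52 for puc and -0.68 for Gadd45. Between full-length and N-terminal mHTT in neurons they were -1.22 for Ets21C, -0.64 for rpr and -0.24 for puc, and the calls of Ets21C and rpr were lost with the 36 libraries of the neuronal models alone (adjusted p = 0.187 and 0.109).

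Changes differed between the ages of 1 model for Ets21C (adjusted p = 0.00352) and Gadd45 (adjusted p = 0.00423) in glial N-terminal heads and for Ets21C in neuronal full-length heads (adjusted p = 0.0465), by the moderated F test.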

How the results depend on the processing

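Over the settings tried, 1497 single-gene values kept their direction and side of the threshold, 82 lost a call, 52 gained one and 18 changed sign. In glial N-terminal heads 3 of the 8 genes were called among genes with a mean of at least 100, against 5. There rpr and Ets21C fell below that mean and were not tested, and both were called in all 29 other settings. In this model th changed by -0.0161 with median-ratio rescaling. In glial full-length heads the most frequent label prefix alone, with few controls, gave 3 of the 8 genes and 1592 genes in all, against 6 and 4625, and rpr changed by 0.0321 with quantile normalisation, 0.0183 with the label prefix as a covariate, 0.0725 with the most frequent prefix alone, 0.0014 with array weights and -0.1140 to 0.0354 with each library left out. In neuronal N-terminal heads 0 of the 8 genes became 1 with quantile normalisation, 7 with the prefix as a covariate, 4 with the most frequent prefix alone, 1 with all 72 libraries, 5 with array weights and 5 without the farthest library. The count of all genes there, 1378, became 4172, 3204, 3264, 3648 and 3729 under the last 5 of these, and 1088 to 3729 (0 to 5 of the 8 genes) with each library left out in turn. There puc changed by -0.0088 with the prefix as a covariate, -0.0192 with the most frequent prefix alone, -0.0026 with array weights and -0.0055 without the farthest library (-0.0055 to 0.0480 with each left out). In neuronal full-length heads 1996 genes became 4866 with array weights and 3702 without the farthest library, and 1690 to 3702 with each left out. Array weights stopped before their convergence tolerance in some fits. The cause of these shifts was not tested.

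Between models, leaving out the farthest libraries gave 4 of the 8 genes for neuronal against glial N-terminal heads (2 with all), 5 at day 7 (3), 7 for older against younger glial controls (4) and 5 for full-length against N-terminal neuronal heads (3), and the 36 libraries alone gave 1 in the last, puc. Differences that changed sign without those libraries were Ets21C at -0.52 (adjusted p = 0.0123) between neuronal and glial N-terminal heads, th at 0.0836 and W at -0.0030 at day 7, and Gadd45 at 0.0267 between the neuronal models. With median-ratio rescaling th was 0.0593 at day 7 and skl -0.0156 between full-length models.

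Deviations of same-numbered replicates from their group means had correlations over 0.1 in 5 of 36 cases (range -0.56 to 0.53). With 3 libraries per group these cannot show whether the numbers pair libraries, and the labels do not say. The replicate block gave 908 genes in neuronal N-terminal heads against 1378. Of the 8 genes depth limits rpr most, with 29.0 to 138 estimated reads per library.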
